A study of Homo sapiens with 6 samples.

Results

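The ligands described here are 10 surface proteins, or their genes, through which a tissue cell signals to T cells and natural killer cells: CD274 (PD-L1), PDCD1LG2 (PD-L2), ICOSLG, CD276 (B7-H3), CD40, NECTIN2, PVR, ICAM1, CD47 and LGALS9. They were taken by symbol from a count table of 58735 genes. All 10 passed the filter on low counts, among 17844 genes tested. CD40 is in structure a receptor, and it is counted here as the partner that the CD40 ligand of activated T cells binds.

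A T cell that meets antigen on a cell also reads surface proteins that raise or damp its response. CD274 and PDCD1LG2 bind the inhibitory receptor PD-1, ICOSLG binds the costimulatory receptor ICOS, and nectin-type ligands are shared between activating and inhibitory receptors of T and natural killer cells. Hepatocytes can present antigen and carry several of these proteins, and interferon-gamma acting through JAK1, JAK2 and IRF1 is a known inducer of CD274 in many cell types.

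Polyadenylated RNA was sequenced from HepaRG, a line of human liver progenitor cells that forms hepatocyte-like and biliary-like cells in DMSO. All 6 libraries came from cells differentiated with 1.8% DMSO, transfected with siRNA for 48 h and then given oleic acid (800 µM) with palmitic acid (400 µM) for 24 h, so both groups carry the fatty acid load. The siRNAs were aimed at STAT3, at the receptor-type tyrosine phosphatase PTPRD or were controls, and the 2 groups are labelled PTPF and STATF, with 3 libraries each. The labels do not spell these names out and do not say whether each library of a group had its own culture, so the p-values rest on a spread that may be technical. Control siRNA libraries were not analysed here, so a higher value in one group and a lower value in the other cannot be told apart.

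Total counts were 33225627 to 40796767 per library. Expression is given as CPM, the count relative to each library's total scaled by TMM, a factor that evens out composition. STAT3 stood at 436, 437 and 457 CPM in PTPF libraries 1 to 3 and at 114, 132 and 113 CPM in STATF libraries 1 to 3, a 3.71-fold difference (edgeR quasi-likelihood test, adjusted p = 2.47e-18). PTPRD stood at 10.04, 12.8 and 11.7 CPM in PTPF and at 11.2, 12.2 and 11.1 CPM in STATF, with no difference past the threshold (log2 fold change 0.00049, 95% interval -0.19 to 0.19, adjusted p = 0.999). PTPRD transcript therefore does not separate the groups, and every direction below is that of libraries labelled PTPF relative to libraries labelled STATF. The 2 most expressed hepatocyte markers were ALB, at 12006 and 14867 CPM in PTPF and STATF, and SERPINA1, at 23741 and 14464 CPM. They differed in opposite directions.

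Of the 10 ligands, 8 were lower in PTPF-labelled than in STATF-labelled libraries, 1 was higher and 1 did not pass an adjusted p of 0.05. The lower calls took in both PD-1 ligands, CD40, ICOSLG, CD276, CD47, NECTIN2 and ICAM1, and the higher call was PVR. Among all genes tested, 11.6% were called lower and 10.1% higher. The median log2 fold change of the 10 ligands was -0.45, against 0.0016 over all genes tested. Sizes were uneven: CD274, PDCD1LG2, CD40 and LGALS9 differed by more than 1.5-fold, as did 9.47% of all genes tested, and LGALS9 was the one of these that missed the threshold. The other 6 ligands were called at differences under 1.5-fold. The 3 PTPF and the 3 STATF values did not overlap for any ligand, with 9 lower in PTPF (18.4% of all genes tested were separated this way) and 1 higher (17.3%). For a single gene, the two-sided exact permutation test of 3 against 3 libraries gave p = 0.1 for each ligand, the smallest it allows.

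**Figure D1:**
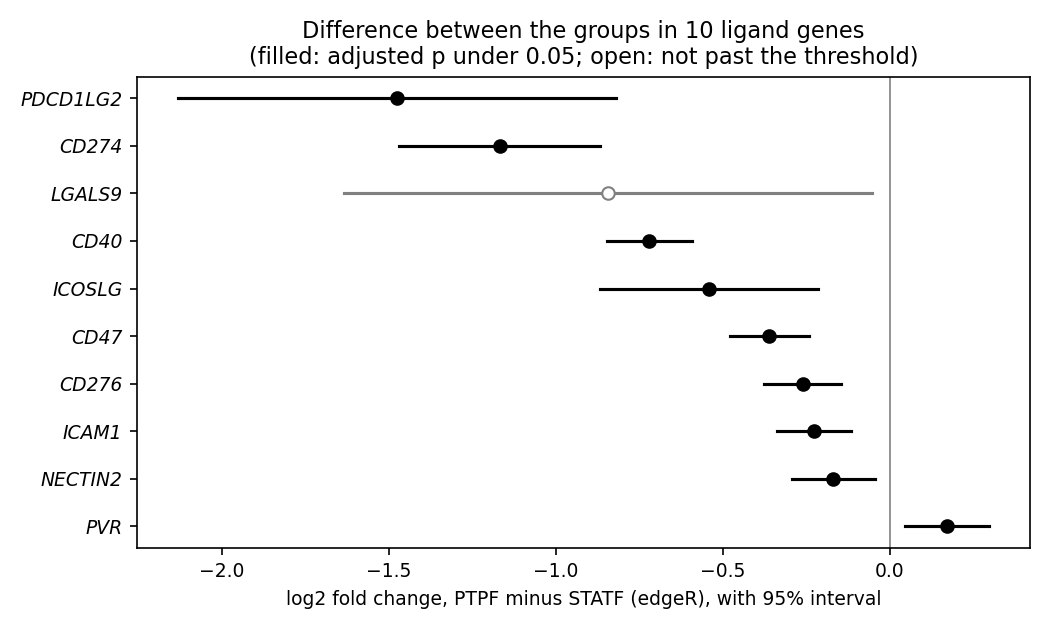
Log2 fold change of each ligand gene (x axis, PTPF minus STATF, edgeR) with its 95% interval as a bar. Filled points passed an adjusted p of 0.05. The points run from -1.48 for PDCD1LG2 to 0.17 for PVR, and the interval of LGALS9 is the widest of the 10.

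Markers of other cell types were read beside these counts and beside the shares over all genes tested, 11.6% lower and 10.1% higher. Of 4 biliary markers, 3 were tested and 2 were lower in PTPF, KRT19 (75.7 ± 6.40 against 112.7 ± 10.3 CPM, mean ± SD, n = 3) and SOX9 (15.1 ± 0.610 against 20.03 ± 1.22 CPM), while EPCAM had 0 counts in all libraries. The summed biliary level was 86.1 to 97.7 CPM in PTPF and 124.9 to 143.8 CPM in STATF. In bulk RNA, fewer cells of a type and less RNA per cell cannot be told apart, and the part of biliary-like cells in the ligand differences was not tested. Of 8 hepatocyte markers, 2 were higher and 4 lower, with a summed level of 39000 to 46050 CPM in PTPF and 36870 to 37900 CPM in STATF.

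Markers of immune, endothelial and mesenchymal cells were read in the same way. PTPRC, which encodes the pan-leukocyte protein CD45, had 1 count over all 6 libraries, and CD3E, CD2 and C1QA had 0. Of 11 myeloid, dendritic and B cell markers, 3 were tested and none was called, with sums of 2.11 to 2.91 CPM in PTPF and 3.02 to 3.63 CPM in STATF. The most abundant were CD163 (1.10 ± 0.315 and 1.44 ± 0.136 CPM) and ITGAX (0.5999 ± 0.171 and 1.02 ± 0.212 CPM), and without PTPF replicate 3 the count of lower markers was 1. Among 9 T and natural killer cell markers, 3 were tested and none was called (2.15 to 2.82 and 1.65 to 2.27 CPM), led by CD3D (1.42 ± 0.253 and 1.10 ± 0.151 CPM) and KLRD1 (0.635 ± 0.242 and 0.390 ± 0.120 CPM). CD3D and CD163, with 273 and 282 counts in all, thus lay above PDCD1LG2 (164 counts) and LGALS9 (110 counts), and the part of immune cells in the ligand differences was not tested. Endothelial markers summed to 0.950 to 1.47 and 1.37 to 1.87 CPM, with 2 of 4, PECAM1 and STAB2, tested and none called. Of 5 mesenchymal markers 1, ACTA2, was lower (20.6 ± 1.6 and 26.2 ± 0.965 CPM), and their sums, led by DCN, overlapped (53.4 to 66.5 and 50.4 to 67.8 CPM). PDGFRA, named after its values were seen, stood at 0.494 ± 0.163 and 0.210 ± 0.112 CPM without overlap (log2 fold change 1.23, adjusted p = 0.0632), and the count of higher mesenchymal markers, 0 here, was 1 each with limma-voom, with the replicate block and without PTPF replicate 2.

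Promoter sequence was read for the ligands from RefSeq windows on GRCh38.p14. They run from 250 bases before to 50 bases after a transcript start given by RefSeq, which is position 0 here. The ICAM1 and LGALS9 windows begin at chr19:10270870 and chr17:27630938, inside the genes as counted, which start at chr19:10270835 and chr17:27629798. The ICAM1 stretch below thus lies within the counted gene. Windows were matched for 8 of the 10 ligands, not for CD40 and PDCD1LG2. Each was searched on both strands for the gamma-activated site TTCNNNGAA, the sequence that STAT dimers bind, and for the core of the interferon-stimulated response element, 2 copies of GAAA separated by any 2 bases, which interferon regulatory factors bind. The first motif occurs in 7.66% and the second in 3.57% of all 35116 windows, and 3 ligands held a match. Stretches are shown for CD274 as the more abundant PD-1 ligand, for ICAM1 as another ligand with a match, and for PVR as the ligand that was higher in PTPF. All are plus strand, 5′ to 3′, with motif matches in capitals.
CD274, chr9:5450292-5450502: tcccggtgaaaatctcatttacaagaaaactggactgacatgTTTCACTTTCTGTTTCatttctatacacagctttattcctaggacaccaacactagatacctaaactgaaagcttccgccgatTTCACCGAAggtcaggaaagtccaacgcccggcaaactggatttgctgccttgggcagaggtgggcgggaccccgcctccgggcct
ICAM1, chr19:10271035-10271064: ggcgcgaggtTTCCGGGAAagcagcaccgc
PVR, chr19:44643660-44643797: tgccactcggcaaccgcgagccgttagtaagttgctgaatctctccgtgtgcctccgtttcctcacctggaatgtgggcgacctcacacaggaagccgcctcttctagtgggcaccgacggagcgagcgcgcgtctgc
In CD274 the first capitals hold 2 overlapping cores read on the minus strand, at -208 to -199 and -202 to -193, and the later capitals are a gamma-activated site at -125 to -117. ICAM1 holds a gamma-activated site at -75 to -67. The PVR stretch, and the rest of its window, hold neither motif. LGALS9, whose window is not printed, has 1 core at -9 to 0. These matches describe letters only, and binding was not measured.

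CD274 encodes PD-L1, which on binding PD-1 restrains T cells, and it lies at chr9:5450503-5470566 on the plus strand (GRCh38, as for all gene positions here). Its level was 2.67, 2.53 and 2.11 CPM in PTPF libraries 1, 2 and 3 and 5.33, 5.35 and 5.80 CPM in the STATF libraries. The lowest STATF value was far above the highest PTPF value, and the values within a group were close together. The counts behind them were 69 to 93 reads per PTPF library and 200 to 223 per STATF library. The group means were 2.44 ± 0.290 and 5.50 ± 0.263 CPM (SD, n = 3). The log2 fold change was -1.17 (SE 0.146, 95% interval -1.47 to -0.87, edgeR adjusted p = 7.11e-07), or 2.25-fold higher in STATF. The call held in 14 of 14 alternative settings.

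PDCD1LG2, the PD-L2 gene at chr9:5510570-5571254, begins 40004 bases beyond the end of CD274 on the same strand. PD-L2 binds the same receptor and is best known from antigen-presenting cells. It was scarce: 12, 14 and 13 counts in the PTPF libraries and 37, 54 and 34 in the STATF libraries, which is 0.364, 0.382 and 0.398 against 0.986, 1.30 and 0.909 CPM. A level of 3 counts, the limit set by finding 0, corresponds to 0.0720 to 0.0919 CPM, so all 6 values lie above it. The means of 0.381 ± 0.0171 and 1.06 ± 0.205 CPM gave the lowest log2 fold change of the 10 ligands, -1.48 (SE 0.319, 95% interval -2.13 to -0.82, adjusted p = 0.00103), a 2.78-fold difference whose interval includes that of CD274.

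Both PD-1 ligands were thus lower together, and the balance between them could be read within each library. Per unit of gene length, CD274 exceeded PDCD1LG2 by 4.22, 3.82 and 3.06 times in PTPF and by 3.11, 2.38 and 3.67 times in STATF. These ranges overlap. The geometric means were 3.67 and 3.01, a log2 difference of 0.29 (two-sided exact permutation test, p = 0.3). The protein-coding neighbours on either side of the pair did not pass the threshold: PLGRKT, a plasminogen receptor gene 12625 bases before CD274, had a log2 fold change of -0.10 (adjusted p = 0.523), and RIC1, which encodes a Golgi trafficking factor, lies 57771 bases after PDCD1LG2 and had 0.03 (adjusted p = 0.791).

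ICOSLG, the costimulatory B7 protein that ICOS on activated T cells binds, lies at chr21:44217014-44240966 on the minus strand. It was measured at 2.49, 2.51 and 2.18 CPM in PTPF and 3.49, 3.70 and 3.26 CPM in STATF, from 71 to 154 counts a library. The lowest STATF value lies above the highest PTPF value. Means of 2.39 ± 0.187 and 3.48 ± 0.219 CPM gave a log2 fold change of -0.54 (SE 0.159, 95% interval -0.87 to -0.22, adjusted p = 0.0137). The call was lost without PTPF replicate 3 (-0.48, adjusted p = 0.0606) and without STATF replicate 2 (-0.50, adjusted p = 0.0687). Of all 50-base words in its transcripts, 34.5% also occur in other genes, and 33.7% of all its words occur in the copy FP565260.3, so reads of the copy and of ICOSLG may not be separated. FP565260.3 itself had 162 counts in all and no call (log2 fold change -0.61, adjusted p = 0.264).

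CD276 encodes B7-H3, a B7 relative widely present outside the immune system whose receptor is debated, at chr15:73683966-73714518. The 6 values were 59.6, 58.3 and 55.8 CPM in PTPF and 69.3, 71.8 and 67.1 CPM in STATF. All STATF values were higher, by a modest margin. The means were 57.9 ± 1.95 and 69.4 ± 2.33 CPM, a log2 fold change of -0.26 (SE 0.0563, 95% interval -0.38 to -0.15, adjusted p = 0.00102).

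CD40, a tumour necrosis factor receptor family member that T cells engage through CD40 ligand, lies at chr20:46118272-46129863 and shares no exon base or 50-base word with another gene. PTPF libraries held 35.0, 33.5 and 31.4 CPM, and STATF libraries held 54.1, 53.0 and 57.5 CPM. The gap between the groups is several times the spread within either. The counts behind these values were 1025 to 1229 and 2028 to 2208 a library. Means were 33.3 ± 1.79 and 54.8 ± 2.32 CPM, a log2 fold change of -0.72 (SE 0.0618, 95% interval -0.85 to -0.59, adjusted p = 8.63e-10), or 1.65-fold higher in STATF. This was the smallest adjusted p of the 10 ligands.

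**Figure D2:**
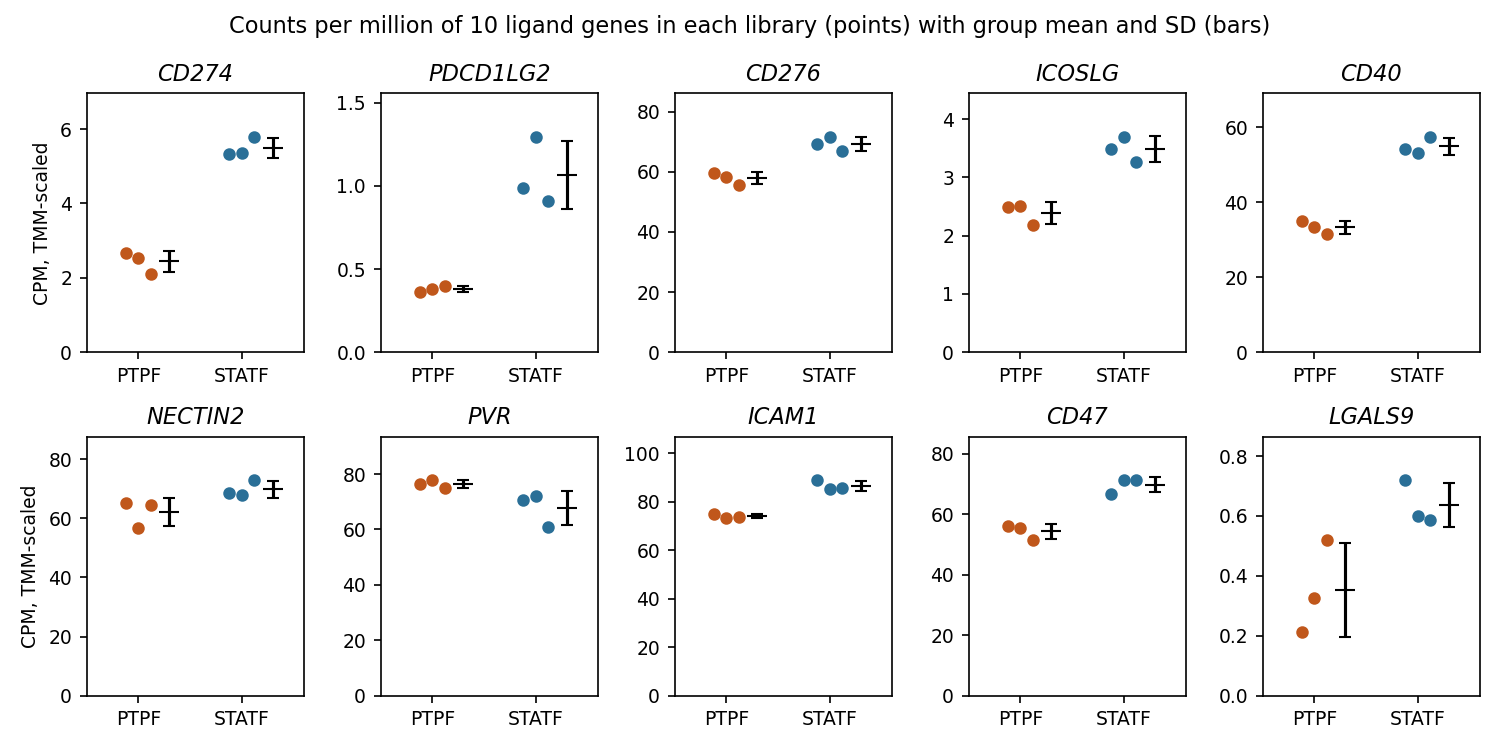
TMM-scaled CPM (y axis, from 0) of each ligand in the 3 PTPF and 3 STATF libraries (points), with the group mean and SD as bars. CD274, PDCD1LG2 and CD40 show wide gaps between groups, NECTIN2 and PVR show gaps close to the spread of their libraries, and PVR is the panel in which PTPF is above STATF.

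NECTIN2 and PVR are nectin-type adhesion proteins on chromosome 19 (chr19:44846175-44889228 and chr19:44643798-44663583). Both are bound by the activating receptor CD226 and the inhibitory receptor TIGIT, and PVRIG and CD96 each read one of them. NECTIN2 was at 65.1, 56.6 and 64.4 CPM in PTPF and at 68.6, 67.7 and 72.9 CPM in STATF. The groups did not overlap, but PTPF 2 lay well below the other PTPF libraries. Means of 62.0 ± 4.69 and 69.7 ± 2.76 CPM gave a log2 fold change of -0.17 (SE 0.0608, 95% interval -0.29 to -0.04, adjusted p = 0.0463). That call was lost in 8 of 14 alternative settings. Without PTPF replicate 2 the value was -0.10 (adjusted p = 0.282), without PTPF replicate 3 -0.20 (0.0544), and without STATF replicates 1, 2 and 3 in turn -0.18 (0.0955), -0.19 (0.0761) and -0.14 (0.210).

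PVR was at 76.6, 77.8 and 74.8 CPM in PTPF and at 70.6, 72.1 and 60.8 CPM in STATF. STATF 3 was lower than the other STATF libraries, and the remaining values of the groups were close. Means of 76.4 ± 1.505 and 67.9 ± 6.14 CPM gave a log2 fold change of 0.17 (SE 0.0615, 95% interval 0.04 to 0.30, adjusted p = 0.0479). This call too was lost in 8 of 14 settings. With library totals as the only scaling the value was 0.11 (adjusted p = 0.257), and without STATF replicate 3 it was 0.10 (0.328). Without PTPF replicates 1, 2 and 3 in turn it was 0.17 (0.0512), 0.16 (0.0768) and 0.19 (0.0756), and without STATF replicate 1 it was 0.20 (0.0645).

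The relation between these paired ligands was followed within each library. The length-scaled ratio of NECTIN2 to PVR was 0.798, 0.684 and 0.808 in PTPF and 0.913, 0.881 and 1.13 in STATF, without overlap. PVR thus exceeded NECTIN2 in all libraries but STATF 3. Geometric means were 0.761 and 0.967, a log2 difference of -0.35. The two-sided exact permutation test gave p = 0.1, the smallest 3 against 3 libraries can give. NECTIN2 was lower and PVR higher in every PTPF library than in any STATF library. The ratio therefore had to separate, and it adds no evidence beyond the values of each gene.

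ICAM1, the adhesion partner of the leukocyte integrin LFA-1 and a known target of tumour necrosis factor and interferon-gamma, lies at chr19:10270835-10286615. Values were 74.9, 73.5 and 73.7 CPM in PTPF and 89.0, 85.3 and 85.7 CPM in STATF. Libraries within a group were closely spaced and the groups were clearly separated. Means were 74.0 ± 0.741 and 86.7 ± 2.01 CPM, a log2 fold change of -0.23 (SE 0.0535, 95% interval -0.34 to -0.12, adjusted p = 0.00245), or 1.17-fold higher in STATF. Other genes overlap 23.6% of its exon bases, mostly the antisense gene AC011511.5, and reads of such a pair cannot be told apart without strand. That gene had 53 counts over all libraries and ICAM1 had 17668.

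CD47 gives macrophages an inhibitory signal through SIRPA and also acts on T cells. It lies at chr3:108043094-108091862 on the minus strand. The PTPF libraries gave 56.2, 55.5 and 51.5 CPM and the STATF libraries 66.9, 71.3 and 71.3 CPM. All STATF values were above all PTPF values, with a gap of several SD between the means, 54.4 ± 2.56 and 69.9 ± 2.55 CPM. The log2 fold change was -0.36 (SE 0.0577, 95% interval -0.48 to -0.24, adjusted p = 2.99e-05), or 1.28-fold higher in STATF.

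LGALS9 encodes galectin-9, a sugar-binding protein that TIM-3 (HAVCR2) on T cells recognises, at chr17:27629798-27649560. It was the rarest ligand, with 7, 12 and 17 counts in PTPF and 27, 25 and 22 in STATF, or 0.212, 0.327 and 0.521 against 0.720, 0.6003 and 0.588 CPM. The PTPF libraries were spread widely and the STATF libraries lay above all of them. Means of 0.353 ± 0.156 and 0.636 ± 0.0728 CPM gave a log2 fold change of -0.84 (SE 0.384, 95% interval -1.63 to -0.05), which had an unadjusted p of 0.0370 and an adjusted p of 0.125. The difference therefore did not pass the threshold, and whether depth or the spread of the libraries limits it was not tested. Of its 50-base words, 13.2% occur in other genes, among them LGALS9B (9 counts in all) and LGALS9C (3 counts).

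Levels were next compared between ligands per unit of length, as TPM, the share of length-corrected transcripts, computed from the counts and the deposited gene length. In PTPF, PVR was the most abundant (53.2 ± 2.03 TPM, SD, n = 3), followed by ICAM1 (49.0 ± 1.15), NECTIN2 (40.6 ± 2.54), CD40 (32.3 ± 1.13), CD276 (25.6 ± 0.643) and CD47 (16.2 ± 0.643 TPM). Far below came CD274 (1.45 ± 0.147), ICOSLG (0.627 ± 0.0455), PDCD1LG2 (0.396 ± 0.0294) and LGALS9 (0.153 ± 0.0704 TPM). No neighbours in this order overlapped between libraries. The ligands thus formed an abundant set of 6 and a rare set of 4, and both PD-1 ligands belong to the rare set.

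In STATF the order differed at the top and among the rare ligands. ICAM1 led with 59.9 ± 2.40 TPM, and CD40 came next at 55.6 ± 1.65 TPM, ahead of PVR (49.4 ± 5.23) and NECTIN2 (47.6 ± 1.25), whose library values overlapped. CD40 had stood below NECTIN2 in PTPF. CD276 (32.1 ± 1.48) and CD47 (21.7 ± 0.510 TPM) followed, then CD274 (3.42 ± 0.106 TPM). PDCD1LG2 (1.15 ± 0.228) stood above ICOSLG (0.955 ± 0.0716 TPM) with overlapping library values, and LGALS9 was last (0.285 ± 0.0378 TPM). Relative to all tested protein-coding genes, CD40 was at percentile 81.4 in PTPF and 89.0 in STATF, and CD274 at 17.6 and 27.8. On this scale, which has no TMM factor, the PVR values of the groups overlapped (51.3 to 55.4 TPM in PTPF and 43.4 to 52.6 TPM in STATF).

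**Figure D3:**
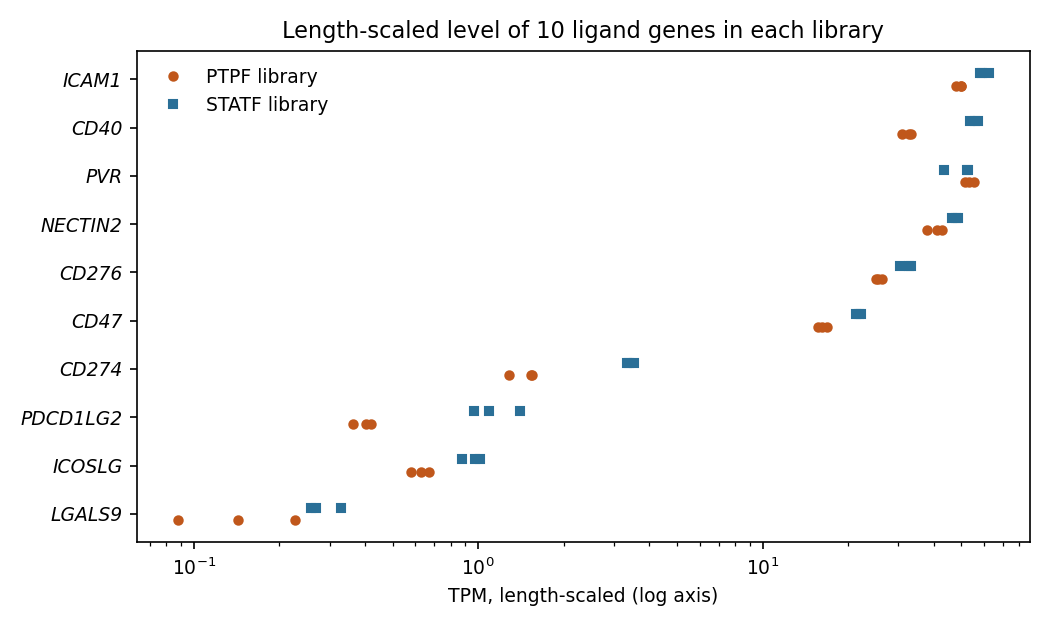
Length-scaled TPM of each ligand (x axis, log scale) in the PTPF (circles) and STATF (squares) libraries. A set of 6 ligands lies above 15 TPM and a set of 4 below 4 TPM, and the CD40 squares lie level with ICAM1 and PVR while its circles lie below NECTIN2.

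Genes beside the ligands on their chromosomes were read by a fixed rule, the nearest protein-coding gene on each side. Of 18 such neighbours that are not ligands themselves, 13 were tested, and edgeR called 0 higher and 0 lower. Over all genes tested, 21.6% were called in either direction. TOMM40, a mitochondrial import channel gene 1341 bases after NECTIN2, came closest, with a log2 fold change of 0.15 and an adjusted p of 0.0540. ICAM4, which starts 352 bases after ICAM1, had 0 counts. CEACAM19 overlaps the end of PVR in 3.44% of its exon bases and had a log2 fold change of 0.19 (adjusted p = 0.291).

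Other B7 and butyrophilin proteins, relatives of the PD-1 ligands, were also lower where called. Of 15 genes, 9 were tested, with 0 higher, 6 lower and a median log2 fold change of -0.54. The shares over all genes tested were 10.1% higher and 11.6% lower. VSIR, the inhibitory B7 relative VISTA, was at 9.56 ± 0.664 and 17.4 ± 0.535 CPM (log2 fold change -0.86, adjusted p = 1.03e-08). The BTN3A genes, whose products take part in phosphoantigen sensing by gamma-delta T cells, were all lower, with log2 fold changes of -0.61 for BTN3A3, -0.55 for BTN3A1 and -0.51 for BTN3A2 (adjusted p = 9.22e-09, 3.13e-08 and 3.40e-08). They share 7.22% to 14.7% of their 50-base words with other genes, so the split of reads among them is uncertain. The classical costimulators CD80 and CD86 had 6 and 14 counts over all libraries and were not tested.

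Nectins and adhesion proteins outside the 10 gave 2 higher and 0 lower calls among 9 tested, with a median of -0.04, against 10.1% higher and 11.6% lower over all genes tested. F11R, the junction protein JAM-A, was at 39.1 ± 3.07 and 21.8 ± 0.892 CPM (log2 fold change 0.84, adjusted p = 3.81e-10). NECTIN4 was at 15.7 ± 1.59 and 11.8 ± 0.236 CPM (0.42, adjusted p = 5.80e-04). F11R shares 36.6% of its exon bases with AL591806.3, which had 21 counts in all. Scaled by library totals alone, the lower count of this list was 1.

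Ligands of natural killer cell receptors gave 0 higher and 2 lower calls among 8 tested, with a median of -0.10. Over all genes tested, 10.1% were higher and 11.6% lower. RAET1E, a stress ligand of the activating receptor NKG2D, was at 0.414 ± 0.0803 and 1.68 ± 0.160 CPM (log2 fold change -2.02, adjusted p = 3.76e-06), and AL355312.5 covers 35.0% of its exon bases. BAG6, a chaperone that also serves as a ligand of NKp30, had a log2 fold change of -0.19 (adjusted p = 0.0117), and its call was lost without STATF replicate 1 (adjusted p = 0.0664) and without STATF replicate 2 (0.0670). The NKG2D ligands MICA and MICB, named after their values were seen, had log2 fold changes of -0.11 and -0.10 (adjusted p = 0.226 and 0.547).

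Other inhibitory ligands went both ways, with 2 higher and 4 lower of 9 tested (10.1% and 11.6% over all genes tested). Their median was -0.17. FGL1, a liver-secreted ligand of LAG-3, was at 485 ± 50.8 and 283 ± 14.3 CPM (log2 fold change 0.78, adjusted p = 1.71e-09). CD24, which engages Siglec-10 on macrophages, was also higher (185 ± 12.8 and 120.5 ± 2.41 CPM, 0.62, adjusted p = 3.91e-09). LGALS1, galectin-1, was lower (27.4 ± 1.04 and 43.4 ± 3.22 CPM, -0.67, adjusted p = 1.498e-08), as was TNFRSF14, the partner of BTLA (19.1 ± 0.625 and 28.1 ± 1.40 CPM, -0.56, adjusted p = 7.67e-07). Without STATF replicate 2 the lower count was 2. TNFRSF14 shares 13.4% of its exon bases with its antisense gene.

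**Figure D4:**
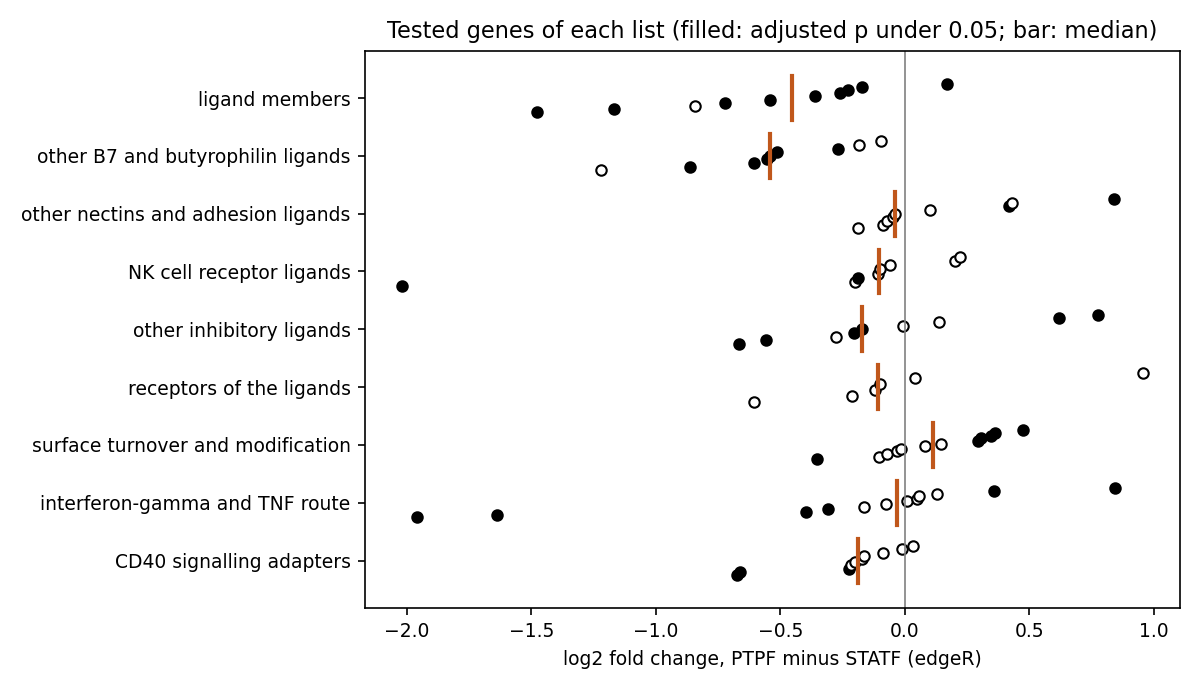
Log2 fold change (x axis, PTPF minus STATF, edgeR) of each tested gene of the ligands and of 8 lists of related genes, 1 row a list. Filled points passed an adjusted p of 0.05 and bars mark list medians, which are -0.45 for the 10 ligands and -0.54 for the other B7 and butyrophilin genes.

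Several receptors through which T cells read these ligands were at or near 0. PDCD1, CD28, CTLA4 and ICOS had 0 counts in all libraries, and CD40LG had 3 counts. Of 14 receptor genes 6 were tested, and edgeR called 0 higher and 0 lower, where 21.6% of all genes tested were called. Scaled by library totals alone, 1 receptor gene was called lower. The most abundant were SIRPA, the CD47 receptor (69.2 ± 1.37 and 74.1 ± 1.69 CPM, log2 fold change -0.10, adjusted p = 0.215), and ITGB2, a chain of LFA-1 (9.61 ± 0.689 and 9.32 ± 0.354 CPM, 0.04, adjusted p = 0.809).

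Of 12 tested genes that modify the ligands or move them to and from the surface, 5 were called higher and 1 lower. Over all genes tested, 10.1% were called higher and 11.6% lower. The list median was 0.11. ZDHHC9, a palmitoyltransferase that acts on PD-L1, was at 94.0 ± 0.645 and 67.5 ± 1.72 CPM (log2 fold change 0.48, adjusted p = 1.21e-07). B3GNT3, a glycosyltransferase of PD-L1, and ADAM17, a protease that sheds surface proteins, had log2 fold changes of 0.35 and 0.31 (adjusted p = 1.71e-04 and 3.69e-04). ADAM17 shares 12.3% of its exon bases with the oppositely placed IAH1, which had 7964 counts against 8018 for ADAM17. Reads of that pair cannot be told apart without strand. HIP1R, which directs PD-L1 to lysosomes, was lower (-0.35, adjusted p = 3.39e-05). The other 2 higher genes, named after their values were seen, were CMTM6, which keeps PD-L1 at the surface (103.6 ± 3.36 and 84.5 ± 6.19 CPM, 0.29, adjusted p = 4.38e-04), and QPCTL, which modifies CD47 so that SIRPA binds it (20.9 ± 0.102 and 16.3 ± 0.395 CPM, 0.36, adjusted p = 4.04e-04). CD274 transcript was thus lower in libraries in which CMTM6 and ZDHHC9 transcripts were higher, and surface protein was not measured. With library totals as the only scaling, the lower count was 2.

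On the route from interferon-gamma and tumour necrosis factor to these ligands, 2 of 12 genes were higher and 4 lower. The shares over all genes tested were 10.1% and 11.6%, and the list median was -0.03. IRF1, a factor through which interferon-gamma acts on CD274, was at 41.6 ± 4.38 and 129 ± 3.74 CPM (log2 fold change -1.64, adjusted p = 1.27e-16). JAK1 and JAK2 were also lower and had log2 fold changes of -0.31 and -0.40. The receptor chain IFNGR1 was higher (297 ± 6.61 and 166 ± 6.99 CPM, 0.84, adjusted p = 4.31e-12), as was the tumour necrosis factor receptor TNFRSF1A (0.36, adjusted p = 2.35e-05). The NF-kB subunits RELA and NFKB1 had values of -0.07 and 0.13 and were not called. IRF1 shares exon bases with the oppositely placed C5orf56, 22.0% of its own, and that gene had 1400 counts against 19317 for IRF1.

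Downstream of CD40, 3 of 10 adapter and NF-kB genes were lower, 0 were higher and the median was -0.19. Over all genes tested, 11.6% were lower and 10.1% higher. BIRC3, a ubiquitin ligase of the TRAF complex, was at 318 ± 29.1 and 508 ± 30.4 CPM (log2 fold change -0.67, adjusted p = 9.29e-09). MAP3K14, the kinase NIK of the noncanonical NF-kB route, had -0.66 (adjusted p = 5.44e-08) and NFKB2, the subunit processed in that route, -0.22 (adjusted p = 0.00378). The TRAF adapters TRAF1, TRAF2, TRAF3, TRAF5 and TRAF6 were measured and none was called, with log2 fold changes of -0.22 to -0.01. MAP3K14 shares 12.3% of its exon bases with its antisense gene.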

How the data were processed

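Polyadenylated RNA of 6 HepaRG libraries was analysed, 3 labelled PTPF and 3 labelled STATF in their titles. Upstream, the submitters' processing notes list featureCounts 1.5.0-p3, HISAT2 2.0.5, CASAVA 1.8 and build GRCh38. Annotation release, strand setting and multi-mapping rule: not given in the sources used here. Per-gene raw counts, not normalized, were deposited by the authors for 58735 genes, with a gene length in bases, a value of an other unit. All gene identifiers are in GENCODE 29, 58690 with the same position.

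The filter was filterByExpr and the scaling TMM. Its factors ran from 0.953 to 0.999 in PTPF and from 1.02 to 1.03 in STATF, so they differed by group. Tests were edgeR 4.0.16's robust quasi-likelihood fits on group alone (R 4.3.3), and p-values were adjusted by Benjamini-Hochberg over 17844 genes. Positive log2 fold changes are higher in PTPF. Called means an adjusted p under 0.05. TPM was computed from counts and the deposited length, without TMM. Exact tests used scipy 1.17.1, with tables handled in pandas 2.3.3 and Python 3.11.15. Lists, with 8 of related genes and 6 of cell markers, were described by counts and medians, without a set test. The text names all 10 ligands, the siRNA targets, up to 4 called genes per related list by adjusted p (or the 2 most expressed where none was called), the nearest protein-coding neighbours and the 2 most expressed markers per marker list, of which the text gives a part. Further list genes (CD80, CD86, JAK1, JAK2, RELA, NFKB1, the TRAF genes and receptors or markers at or near 0 counts) were named after their values were seen. Some genes that the lists hold are not reported here. The members and lists were chosen with earlier results of these data known.

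The floor of 3 counts covers counting error alone, as reads amplified by PCR and lacking molecular identifiers are not independent. On data simulated from these libraries for PTPF against STATF (17540 genes, 50 changed at each size), edgeR recovered 90% of 1.5-fold and 100% of 2-fold, 4-fold and 8-fold changes, with 7.14% of calls false. The changed genes all lay above 1 CPM, so recovery at the level of PDCD1LG2 and LGALS9 in PTPF is not shown. Each library counted as 1 replicate. Libraries of a group differed by more than sampling noise (chi-square divided by its degrees of freedom, 4.30 to 12.06), and this spread too may be technical. Alternatives were RLE, upper-quartile and library-total scaling, DESeq2 1.42.0, limma-voom (limma 3.58.1), no filter, a filter of 50 counts in 3 libraries, a replicate block and leaving out each library.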

Additional observations from a re-analysis of the deposited data

How the results depend on the processing

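No ligand changed direction under any alternative in which it had a value. CD274, CD40, CD276, CD47 and ICAM1 were called in 14 of 14 alternatives and PDCD1LG2 in 13 of 13. PDCD1LG2 and LGALS9 had no value with at least 50 counts in 3 libraries, and they had the fewest counts of the 10 ligands. The count of lower ligands stayed within 1.5 times of 8. It was 7 with RLE, upper-quartile scaling, DESeq2 and the filter of 50 counts, and without PTPF replicate 2. Both ICOSLG and NECTIN2 lost their calls without PTPF replicate 3 and without STATF replicate 2, so the count was lower still there. Leaving out LGALS9 and ICOSLG, which share sequence with copies, gave 7 lower and 1 higher. This follows from the main calls, as ICOSLG was called lower and LGALS9 was not called. The count of higher ligands, 1 by PVR, was 0 with library totals, with no filter (36178 genes) and with DESeq2, and 0 to 1 when single libraries were left out (0 for each library but STATF replicate 2). PVR was then at 0.11 (adjusted p = 0.257), 0.16 (0.0635) and 0.17 (0.0638) in the first 3 of these. NECTIN2 was not called with RLE (-0.17, adjusted p = 0.05001), upper-quartile scaling (-0.16, 0.0604) or DESeq2 (-0.17, 0.0666). The cause was not tested.

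Over all genes, library totals moved the median log2 fold change to -0.0617 and the higher calls to 1164, or 28.1% of 4145 calls against 46.6% of 3863. Leaving out single libraries gave 2830 to 3808 calls. Of 25 called genes picked from the related lists, mostly by smallest adjusted p, 24 were called the same way in all 14 alternatives. BAG6 was the exception among those picked. Picking by adjusted p favours stable calls, so this share does not hold for the weaker called genes that were left out.

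Whether the shared replicate numbers pair the libraries is not given by the labels and was not settled here. Deviations of same-numbered libraries correlated at 0.035, 0.058 and 0.00077 across genes. Libraries 1 and 2 of each group correlated best with their own number, and PTPF 3 and STATF 3 each correlated better with another. Correlations this weak among so few libraries cannot decide the question. With the replicate block, 4145 genes were called, 1928 higher and 2217 lower, and the ligand counts stayed at 8 lower and 1 higher.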
